A study of Mus musculus with 6 samples.

Results

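Fas, Fadd, Casp8, Cflar, Casp9, Apaf1, Xiap and Birc3 encode the FAS death receptor, the proteins it engages, the initiator caspases of the receptor and mitochondrial death routes, and inhibitors of caspase activation or cell death. They were taken by gene symbol from the deposited table, and all 8 were found among its 19680 genes. RNA was sequenced from B220+ CD38- FAS+ spleen cells, the sort used for B cells of the germinal center (GC). The 3 cKO libraries came from Senp1flox/flox Cγ1-Cre mice and the 3 WT libraries from Senp1flox/flox mice without Cre, so both groups carry the floxed allele. All mice were C57BL/6, 6 to 8 weeks old, and were sampled at day 14 after 100 µg of NP-CGG, a hapten coupled to a protein carrier, was given into the peritoneal cavity. Cγ1-Cre is active only in B cells that transcribe the IgG1 constant region, so a GC sort can include cells that have not recombined the floxed gene. The Senp1 product is an enzyme that cuts SUMO, a small protein tag, off other proteins. No label ties a library to a single mouse, and the p-values therefore reflect library-to-library spread, which may be technical.

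FAS is a receptor of the tumor necrosis factor receptor family, and GC B cells carry much more of it than resting B cells do. On binding FAS ligand it recruits the adaptor FADD, which gathers caspase 8 into a complex where caspase 8 is activated; c-FLIP, the product of Cflar, is a caspase-8-like protein that limits this step. In the mitochondrial route, cytochrome c binds APAF1, which assembles into the apoptosome and activates caspase 9. XIAP binds and inhibits caspase 9, while the product of Birc3, cIAP2, is a ubiquitin ligase of TNF receptor complexes and a well-known NF-kB target gene. FAS is also a gate of the sort, so cells low in FAS protein were removed from both groups before RNA was taken.

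The deleted gene was low in every cKO library: Senp1 measured 373, 425 and 398 normalized counts in cKO replicates 1 to 3, against 915, 868 and 891 in WT replicates 1 to 3. A normalized count is the number of reads on a gene divided by a size factor for its library. The cKO libraries held 9657005, 3019152 and 3082897 reads on genes and the WT libraries 10339054, 5160902 and 6528052, so a gene of a given level rests on fewest reads in cKO replicates 2 and 3. The replicate 1 libraries of both groups lay together at one end of the first principal component, at -49.1 in cKO and -54.4 in WT, against -10.1 to 56.2 for the other 4. Mitochondrial genes took 3.66%, 12.3% and 19.1% of reads in cKO replicates 1 to 3, against 2.71%, 7.92% and 9.83% in WT. All 8 GC B cell markers were found, with a summed level of 30808 to 35493 in cKO and 33652 to 37242 in WT. All 8 T cell markers were found as well, each highest in cKO replicate 2. They summed to 392, 1217 and 313 in cKO replicates 1 to 3 and to 310 to 485 in WT. Cd2 alone gave 210, 418 and 253 of these in cKO and 186 to 366 in WT. Cd3e was at 140 in cKO replicate 2, against 5.98 to 27.1 in the other libraries. Cd3d, Cd3g and Cd8a were at 133, 93.0 and 101 in cKO replicate 2 and at 0 in cKO replicate 3. The 7 naive or memory B cell markers summed to 3986, 9380 and 5666 in cKO replicates 1 to 3 and to 2365 to 5076 in WT, again with cKO replicate 2 highest. The 5 plasma cell markers summed to 7121, 16063 and 7433 in cKO replicates 1 to 3 and to 8328 to 12944 in WT, with cKO replicate 2 the highest once more. Jchain alone gave 13478 of the 16063, and Sdc1 and Irf4 were also highest in that library. Xbp1 was at 1082 there, just under its highest value of 1088 in WT replicate 1, and at 760 to 862 in the other libraries. Prdm1 was at 64.5 there, against 58.6 to 107 in WT. The 8 macrophage markers summed to 292 to 457 in cKO and 109 to 298 in WT. The 5 neutrophil markers summed to 18.4 to 125 in cKO and 0.854 to 118 in WT, and the 4 erythroid markers to 3.25, 9.49 and 102 in cKO replicates 1 to 3 and to 5.32 to 18.8 in WT. In bulk libraries, fewer cells of a type and less RNA per cell cannot be told apart.

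None of the 8 genes differed between cKO and WT beyond the spread of the libraries. By limma on log2(normalized count + 1), with Benjamini-Hochberg adjustment over 14678 genes, 0 of the 8 were called higher and 0 lower at an adjusted p under 0.05, and their adjusted p ran from 0.928 to 0.984. The same test called 0% of all genes tested in either direction. At an unadjusted p under 0.05 it had 0 of the 8, where 5.15% of all genes tested passed. The groups overlapped for all 8 genes, while they did not overlap for 11.6% of all genes tested. On the reads recovered from the table, edgeR's quasi-likelihood test and DESeq2 also called 0 of the 8, with 0 of the 8 at an unadjusted p under 0.05. Senp1, lower in every cKO library than in any WT library, had an adjusted p of 0.111 by limma and 2.49e-09 by DESeq2. A gene that differs can therefore go uncalled by limma here. The log2 fold change of cKO over WT was negative for 6 genes and positive for 2, from -0.33 for Casp9 to 0.20 for Birc3. Its median over the 8 was -0.09, beside -0.002 over all genes tested. The authors' deposited table gives an adjusted p of 0.9996 for each of the 8.

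**Figure D1:**
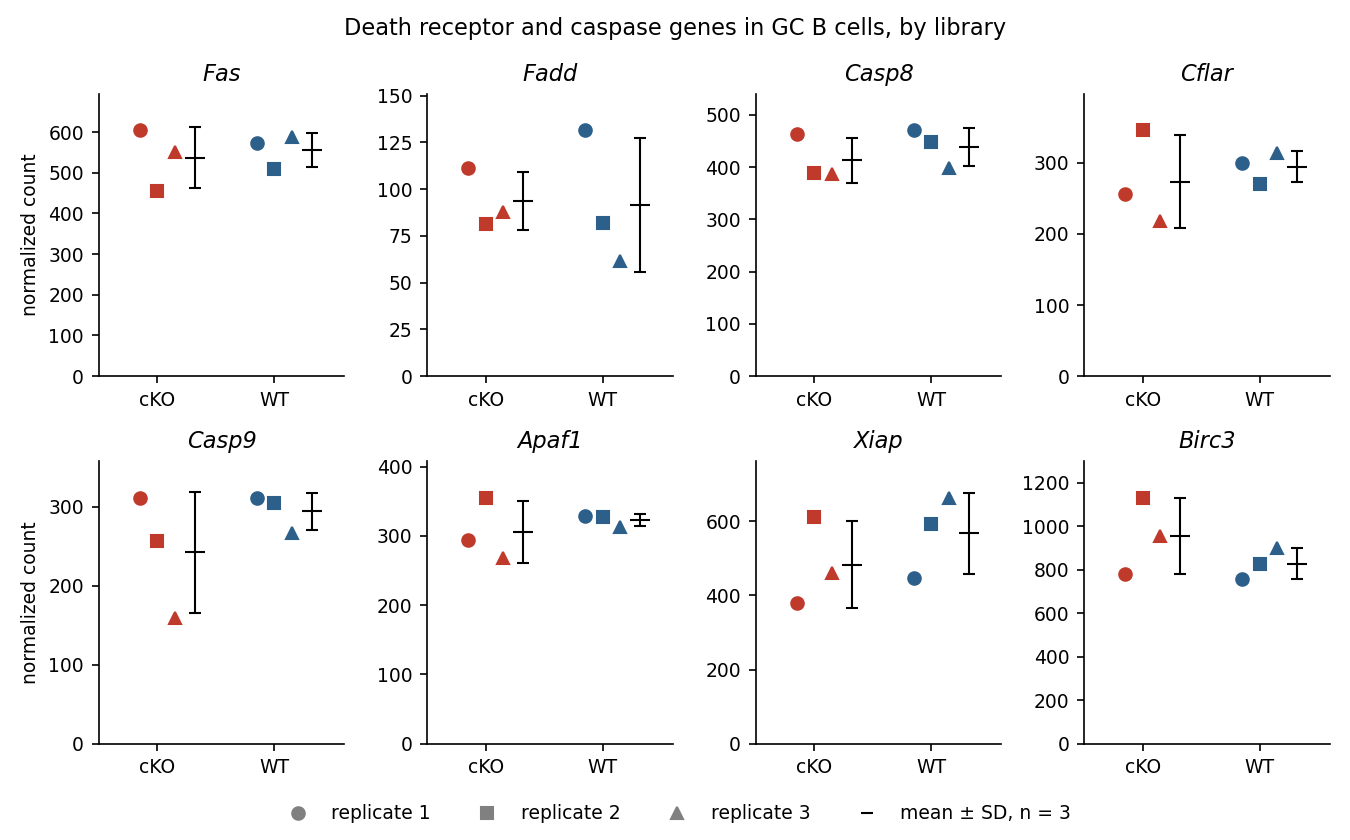
Normalized count of each of the 8 genes (vertical axis, starting at 0) in cKO and WT libraries, with a symbol for each replicate number and mean ± SD (n = 3) beside it. The cKO and WT points overlap in every panel. Casp9 reaches its lowest value, 159, in cKO replicate 3.

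Fas, the receptor, had a high RNA level in both groups. It measured 604, 456 and 551 normalized counts in cKO replicates 1 to 3, against 572, 509 and 587 in WT replicates 1 to 3. The highest and the lowest library were both cKO, so the WT values lay inside the cKO range. The group means were 537 ± 75.3 in cKO and 556 ± 41.5 in WT (SD, n = 3 each), and the log2 fold change was -0.06 ± 0.15 (SE). Its 95% confidence interval ran from 0.760-fold to 1.22-fold of WT. Fas lies on chromosome 19 of GRCm38 at 34290666 to 34327772, with 5 annotated transcripts in GENCODE M21. The table counts reads per gene, so transcripts for the membrane-bound and soluble forms of the receptor cannot be told apart.

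Fadd, the adaptor, was the least precisely measured of the 8. It had 111, 81.6 and 87.8 normalized counts in cKO replicates 1 to 3, against 131, 82.0 and 61.5 in WT replicates 1 to 3. Replicate 1 was highest in both groups, and the widest gap was within WT. In cKO replicates 2 and 3 these values rest on 43 reads each, with exact Poisson 95% intervals of 59.1 to 109.9 and 63.6 to 118 that cover counting error only. The means were 93.5 ± 15.6 in cKO and 91.6 ± 36.0 in WT, with a log2 fold change of 0.09 ± 0.30 and an interval of 0.664-fold to 1.70-fold. Leaving out WT replicate 3 turned the log2 fold change to -0.16. An antisense gene, Faddos, overlaps 6.12% of Fadd's exon length on chromosome 7. The sources used here do not give the strand setting of the counting.

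Casp8, the initiator caspase of the receptor complex, varied least among the 6 libraries. It measured 463, 389 and 386 normalized counts in cKO replicates 1 to 3, against 470, 447 and 398 in WT replicates 1 to 3. Each cKO value lay below the WT value of the same number, by 0.02 to 0.20 on the log2 scale, although the groups overlapped. Here and below, libraries are matched by number alone, as no label pairs them. The means were 413 ± 43.6 in cKO and 438 ± 36.8 in WT, with a log2 fold change of -0.09 ± 0.14 and an interval of 0.751-fold to 1.18-fold. The coefficient of variation over the 6 libraries was 9.10%, against 5.31% from read counting alone.

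Cflar, the c-FLIP gene that restrains caspase 8, lies next to Casp8 on chromosome 1, with 36489 bp and no other protein-coding gene between them. It measured 255, 345 and 219 normalized counts in cKO replicates 1 to 3, against 299.8, 270.4 and 314 in WT replicates 1 to 3. Here cKO replicate 2 was the highest library and cKO replicate 3 the lowest, on either side of all WT values. The means were 273 ± 65.3 in cKO and 295 ± 22.0 in WT, with a log2 fold change of -0.13 ± 0.19 and an interval of 0.676-fold to 1.23-fold. Without cKO replicate 2 the log2 fold change was -0.31, and without cKO replicate 3 it was 0.015. The same cKO replicate 2 held the highest summed T cell, naive or memory B cell, plasma cell and macrophage markers; their part in its Cflar value was not tested. Of the 13 annotated Cflar transcripts 4 are protein-coding, and the long and short forms of c-FLIP were counted together. Of the 50-base stretches of its longest coding transcript, 11.7% also occur in transcripts of other genes, so part of its reads may be uncertain. The same share was 7.34% for Birc3, 5.05% for Casp8 and 1.48% or less for the rest.

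Casp9, the caspase of the apoptosome, had the lowest cKO mean relative to WT. It measured 311, 256 and 159 normalized counts in cKO replicates 1 to 3, against 311, 304 and 267 in WT replicates 1 to 3. The replicate 1 libraries were level, while cKO lay below WT by 0.25 in replicate 2 and 0.74 in replicate 3 on the log2 scale. In replicate 3 cKO had 78 reads with a counting interval of 126 to 199 normalized counts. The means were 242 ± 76.9 in cKO and 294 ± 23.7 in WT, with a log2 fold change of -0.33 ± 0.24, an interval of 0.544-fold to 1.16-fold and a limma adjusted p of 0.928. Between the replicate 1 libraries the log2 difference was -0.0006, while replicates 2 and 3 together gave -0.50. The library with the lowest Casp9, cKO replicate 3, also had the highest mitochondrial share, 19.1% of reads; its part in the result was not tested. Without cKO replicate 3 the log2 fold change was -0.06, and without cKO replicate 1 it was -0.54 (unadjusted p = 0.0461 by limma, adjusted p = 0.533, and 0.533 to 0.9996 over the 17 alternatives).

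Apaf1, the scaffold on which caspase 9 is activated, was the steadiest of the 8 within WT. It measured 293, 355 and 268 normalized counts in cKO replicates 1 to 3, against 328, 328 and 314 in WT replicates 1 to 3. The cKO libraries lay on both sides of the WT values. The means were 305 ± 44.9 in cKO and 323 ± 8.35 in WT, with a log2 fold change of -0.09 ± 0.15 and an interval of 0.739-fold to 1.19-fold.

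Xiap, the direct caspase inhibitor, varied widely within both groups. It measured 379, 611 and 460 normalized counts in cKO replicates 1 to 3, against 448, 592 and 663 in WT replicates 1 to 3. Replicate 1 was the lowest library of each group, 0.48 below the mean of replicates 2 and 3 on the log2 scale in both cKO and WT. The means were 483 ± 118 in cKO and 568 ± 109.6 in WT, with a log2 fold change of -0.24 ± 0.21 and an interval of 0.604-fold to 1.19-fold. The difference in log2 was -0.24 between the replicate 1 libraries, 0.05 between the replicate 2 libraries and -0.53 between the replicate 3 libraries. The coefficient of variation over the 6 libraries was 21.3%, against 4.69% from read counting alone and a median of 14.1% over the 1963 tested genes within 1.5-fold of its mean level.

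Birc3, the cIAP2 gene, had the highest normalized count of the 8 in each library. It measured 781, 1131 and 958 in cKO replicates 1 to 3, against 757, 826 and 899.6 in WT replicates 1 to 3. Each cKO value was above the WT value of the same number, but cKO replicate 1 lay below WT replicates 2 and 3. The means were 957 ± 175 in cKO and 828 ± 71.2 in WT, with a log2 fold change of 0.20 ± 0.16, an interval of 0.888-fold to 1.48-fold and a limma adjusted p of 0.930. Without cKO replicate 2, the library with the highest summed T cell, naive or memory B cell, plasma cell and macrophage markers, the log2 fold change was 0.07. The part of any such cells in the Birc3 values was not tested. Its paralog Birc2, which encodes cIAP1 and lies 11634 bp away on chromosome 9, had a log2 fold change of 0.03.

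**Figure D2:**
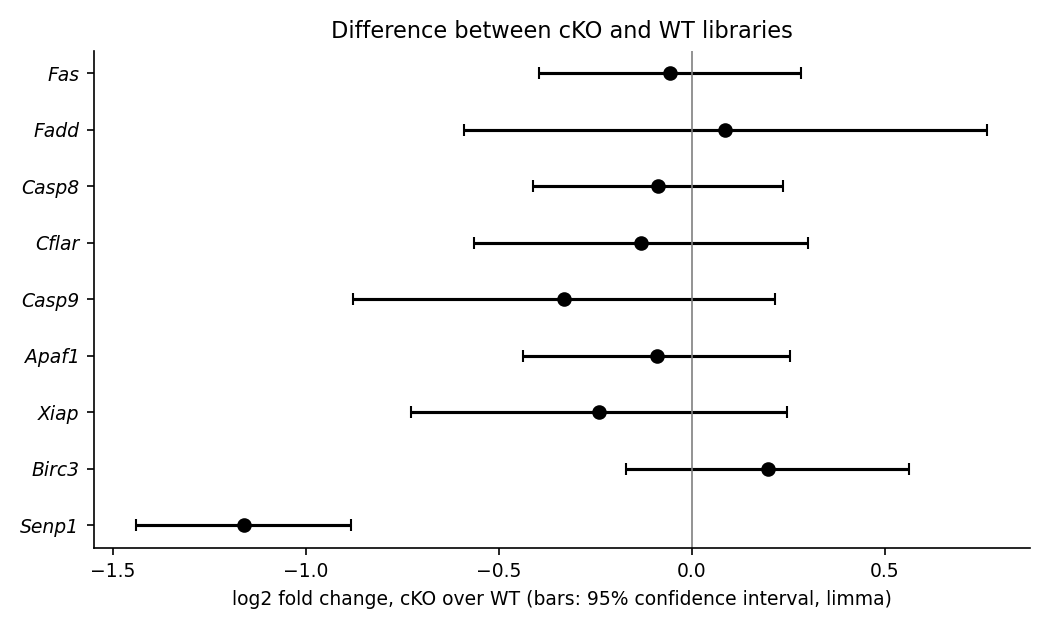
Fitted log2 fold change of cKO over WT (horizontal axis) with its 95% confidence interval from limma, for the 8 genes and, at the bottom, for Senp1. Each of the 8 intervals crosses 0, while that of Senp1 runs from -1.44 to -0.88. Its limma adjusted p over all genes was 0.111.

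The width of the intervals differed between the genes. For Fas, Casp8 and Apaf1 each interval stayed between 0.739-fold and 1.22-fold of WT. For Fadd it spanned 0.664-fold to 1.70-fold, and for Casp9 0.544-fold to 1.16-fold. For each of the 8 genes the spread between libraries exceeded that of read counting. The coefficient of variation was 26.8% against 11.7% from counting alone for Fadd and 21.8% against 7.10% for Casp9. For Fas it was 10.1% against 4.69%. On the log2 scale the SD was larger among cKO than among WT libraries for 7 of the 8 genes, Fadd being the exception, where 63.6% of all genes tested had the larger SD in cKO. The cKO libraries are also the shallower ones in replicates 2 and 3.

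Per length, the 8 genes fell into a high and a low set that held in every library. Values were divided by the summed length of a gene's annotated exons in GENCODE M21, in kb. Fas was highest, with 260.4 ± 36.5 normalized counts per kb in cKO and 269.7 ± 20.1 in WT. Birc3 followed at 191 ± 35.0 in cKO and 165 ± 14.2 in WT, and Casp8 at 143 ± 15.1 in cKO and 152 ± 12.7 in WT. These 3 stood at the 92.7, 89.1 and 86.7 percentile of 14630 tested genes with a length. Xiap came next at 51.0 ± 12.5 per kb in cKO and 59.9 ± 11.6 in WT, then Casp9 at 46.6 ± 14.8 in cKO and 56.7 ± 4.55 in WT, and Apaf1 at 33.8 ± 4.97 in cKO and 35.8 ± 0.925 in WT. Fadd, at 24.0 ± 3.99 in cKO and 23.5 ± 9.21 in WT, and Cflar, at 21.6 ± 5.15 in cKO and 23.3 ± 1.74 in WT, were lowest.

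Of the neighbours in this order, Casp8 and Xiap alone had ranges that did not overlap over the 6 libraries (133 to 163 against 40.0 to 70.01 per kb). Casp9 was above Apaf1 and Apaf1 above Fadd within each of the 6 libraries, though their ranges over libraries overlapped. Fas was above Birc3 in 5 libraries, Birc3 above Casp8 in 4, Xiap above Casp9 in 4 and Fadd above Cflar in 3. With the longest protein-coding transcript as the length, a choice made after the data were seen, Fadd (23.7 per kb over the 6 libraries) and Cflar (43.2) changed places and the order of the other 6 was kept.

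**Figure D3:**
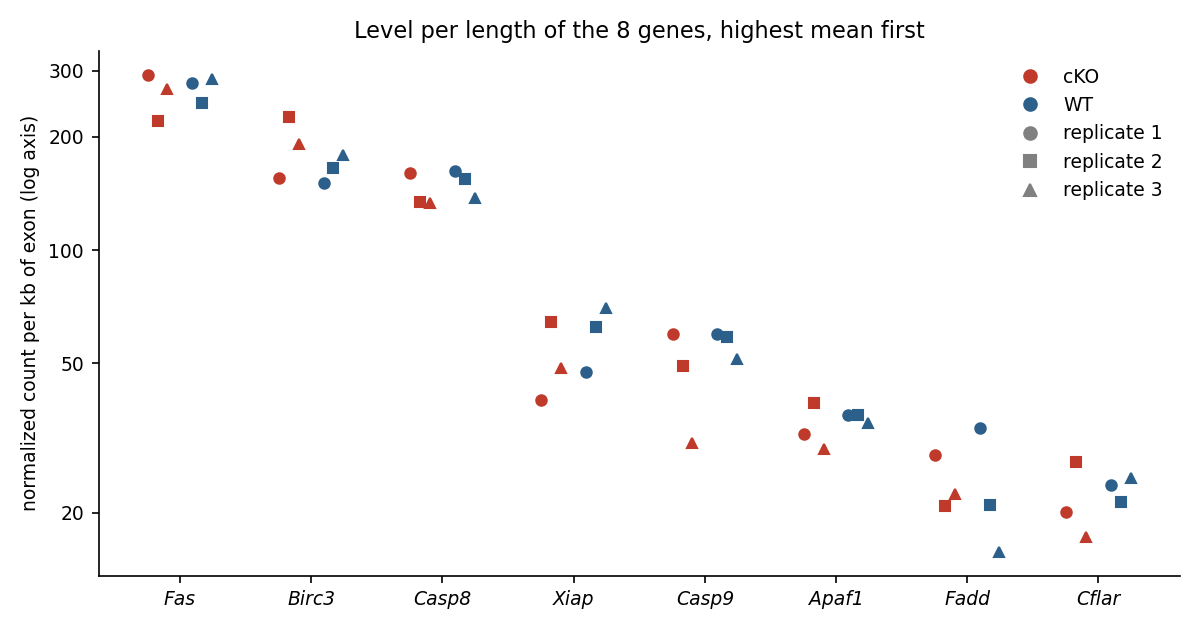
Normalized count per kb of exon (log axis) in each library, genes ordered by their mean over the 6 libraries, cKO left of WT within a gene. Fas, Birc3 and Casp8 lie at 133 to 293, and the other 5 genes at 15.8 to 70.01.

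Ratios between a pair of genes in the same library do not depend on its size factor, apart from the 1 added to each normalized count. 4 such ratios were compared. The log2 ratio of Casp8 to its neighbour and inhibitor Cflar was 0.86, 0.17 and 0.82 in cKO replicates 1 to 3, against 0.65, 0.72 and 0.34 in WT. The WT values lay inside the cKO range, and the means differed by 0.04. The log2 ratio of Casp9 to its inhibitor Xiap was -0.28, -1.25 and -1.52 in cKO, against -0.52, -0.96 and -1.31 in WT. In both groups it was highest in replicate 1 and lowest in replicate 3. The log2 ratio of Apaf1 to Casp9 was -0.09, 0.47 and 0.74 in cKO, against 0.08, 0.11 and 0.23 in WT, with a difference of 0.24 between the means. The log2 ratio of Fas to Fadd averaged 2.51 ± 0.11 in cKO and 2.66 ± 0.56 in WT (SD, n = 3 each). Exact two-sided permutation tests gave p of 0.9, 0.9, 0.4 and 0.8 in this order of pairs, each 0.9 after Benjamini-Hochberg adjustment over the 4. With 3 libraries against 3 the smallest p possible is 0.1, so these tests could not have passed 0.05.

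**Figure D4:**
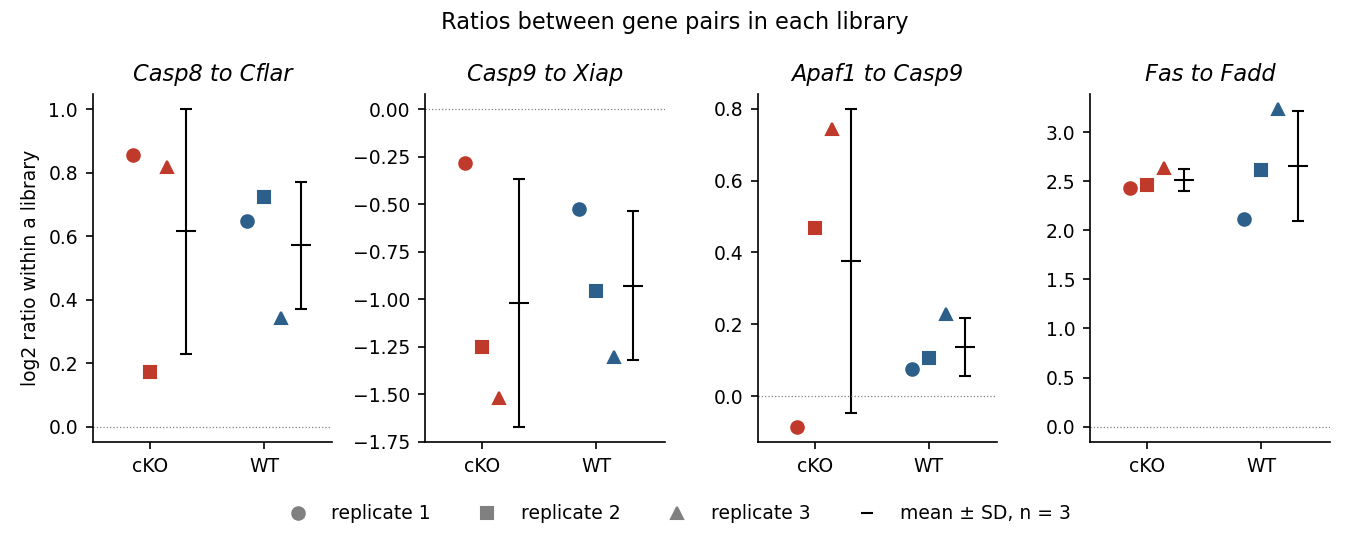
Log2 ratio of the normalized counts + 1 of 2 genes within each library (vertical axis), cKO left of WT, with a symbol for each replicate number and mean ± SD (n = 3). The groups overlap in all 4 panels, and the Casp9 to Xiap ratio is highest in replicate 1 of both groups.

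The genes whose pattern over the 6 libraries was most like that of Fas were Kansl3, Rab22a and Pmvk. Likeness was the root mean square difference of log2 deviations from each gene's own mean, which was 0.0397, 0.0399 and 0.0468 for these, against a median of 0.231 over the 6753 genes compared. These 3 were picked as the smallest by this measure, so the contrast with the median is no test. Fas varied little over the libraries (coefficient of variation 10.1%), so genes that vary little score low by this measure. Kansl3, for example, measured 421, 338 and 415 normalized counts in cKO replicates 1 to 3 and 409, 362 and 436 in WT, lowest in replicate 2 of both groups as Fas was.

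The wider death pathway was read from 6 lists of 62 related genes, of which 56 were tested. By limma 0 of the 56 were called higher and 0 lower, and the same count of 0 was given by edgeR and DESeq2. At an unadjusted p under 0.05 there were 3 higher and 2 lower genes, where 2.98% of all genes tested were higher and 2.17% lower. The groups did not overlap for 4 genes higher in cKO and 2 lower, beside 6.28% and 5.28% of all genes tested. The median log2 fold change was 0.03 over the 56 and -0.002 over all genes tested.

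Among 8 tested death receptors and ligands, 5 had positive and 3 negative log2 fold changes, with a median of 0.17. Tnf, a ligand that can signal survival or death, measured 130, 148 and 210 normalized counts in cKO, against 90.0, 101 and 133 in WT, with a log2 fold change of 0.57 ± 0.24 (limma unadjusted p = 0.0436, adjusted p = 0.915). The highest WT value of Tnf lay just above the lowest cKO value, and without cKO replicate 3 its log2 fold change was 0.37. Lta, which encodes the related ligand lymphotoxin alpha, measured 405, 399 and 519 in cKO, against 351, 320 and 392 in WT. Every cKO value of Lta was above every WT value, with a log2 fold change of 0.31 ± 0.16 and an adjusted p of 0.915. The receptor genes Tnfrsf1a, with 0 to 15 reads a library, and Tnfrsf10b, with 4 to 16, were too low to compare closely. Fasl, the ligand of FAS, is named here after its values were seen: it had 3, 1 and 0 reads in cKO and 2, 2 and 1 in WT.

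Among 14 receptor adaptors and necroptosis genes, 10 had positive and 4 negative log2 fold changes, with a median of 0.04. Cyld, a deubiquitinase that trims ubiquitin chains from receptor complexes, was lower in every cKO library, at 786, 890 and 831 normalized counts against 987, 1081 and 1071 in WT. Its log2 fold change was -0.32 ± 0.12 (limma unadjusted p = 0.0254, adjusted p = 0.915), with -0.33 between the replicate 1 libraries and -0.32 over replicates 2 and 3. Sharpin, a subunit of the linear ubiquitin ligase, measured 375 ± 31.3 in cKO and 331 ± 16.4 in WT, and Tradd, the TNF receptor adaptor, 130.3 ± 32.2 in cKO and 108 ± 38.3 in WT. Mlkl, the effector of necroptosis, had 5, 1 and 1 reads in cKO and 1, 1 and 0 in WT, at or near the level of single reads.

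Among 6 tested further caspases, 2 had positive and 4 negative log2 fold changes, with a median of -0.09. Casp2, an initiator-type caspase, was lower in every cKO library, at 548, 518 and 500.4 normalized counts against 612, 682 and 613 in WT. Its log2 fold change was -0.28 ± 0.12 (limma unadjusted p = 0.0495, adjusted p = 0.915). Casp6 averaged 117 ± 22.5 in cKO and 99.2 ± 7.45 in WT, and the inflammatory Casp4 127 ± 49.4 in cKO and 96.1 ± 36.0 in WT.

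Among 10 tested inhibitor-of-apoptosis genes and antagonists, 7 had positive and 3 negative log2 fold changes, with a median of 0.05, and cKO and WT overlapped for all 10. Birc5, the mitotic protein survivin, measured 792, 340 and 472 normalized counts in cKO, against 869.5, 595 and 418 in WT, and Birc6, a giant ubiquitin ligase, 1836 ± 437 in cKO and 2141 ± 326 in WT. Htra2, a mitochondrial protease that antagonizes these inhibitors, averaged 255 ± 73.0 in cKO and 219.8 ± 40.1 in WT. Naip5, an inflammasome sensor with near-identical family members, had 11 to 22 reads a library and is uncertain. The 6 genes of the apoptosome and mitochondrial release had log2 fold changes from -0.37 for Endog, a nuclease with 3 to 34 reads a library, to 0.21 for the apoptosis inhibitor Aven. Apip, which binds APAF1, averaged 98.4 ± 9.39 in cKO and 87.7 ± 7.94 in WT, and Aifm1, a mitochondrial oxidoreductase with a role in cell death, 280.2 ± 31.2 in cKO and 302 ± 29.3 in WT.

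Among 12 tested caspase substrates and effectors, 6 had positive and 6 negative log2 fold changes, with a median of -0.04. Gsdmd, a pore-forming protein of inflammatory death, measured 108, 154 and 98.0 normalized counts in cKO, against 81.4, 63.9 and 91.4 in WT, higher in every cKO library (log2 fold change 0.59 ± 0.25, limma unadjusted p = 0.0416, adjusted p = 0.915). Lmna, a nuclear lamin gene, measured 8.13, 45.6 and 8.17 in cKO, against 3.03, 2.13 and 6.83 in WT, with cKO replicate 2 far above the others and 2 to 24 reads a library (log2 fold change 1.77 ± 0.73, unadjusted p = 0.0404 by limma, adjusted p = 0.915). Without cKO replicate 2 the log2 fold change of Lmna was 0.98 and that of Gsdmd 0.40. Both genes were highest in cKO replicate 2, which also held the highest summed macrophage markers, 457 against 109 to 319 in the other 5 libraries, and the highest T cell, naive or memory B cell and plasma cell sums. The part of any such cells in the result was not tested. Lmnb1, another nuclear lamin gene, measured 2869, 1704 and 2014 in cKO, against 3396, 3168 and 2316 in WT. Rock1, a kinase cleaved during apoptotic blebbing, averaged 786 ± 164 in cKO and 969.7 ± 150.2 in WT.

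**Figure D5:**
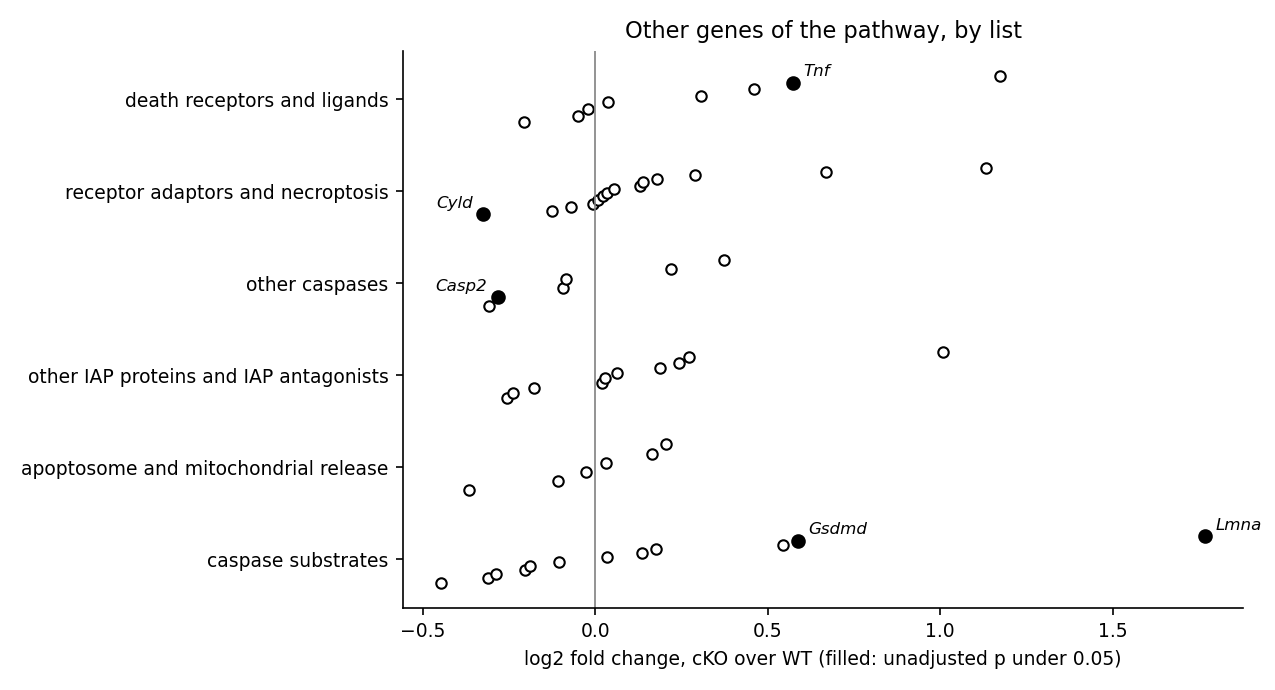
Log2 fold change of cKO over WT (horizontal axis) for the 56 tested genes of the 6 related lists, 1 point per gene, filled where the unadjusted limma p was under 0.05. The 5 filled genes are Tnf, Gsdmd and Lmna on the higher side and Cyld and Casp2 on the lower side; none passed the adjusted test.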

How the data were processed

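The authors deposited 1 table of 19680 genes whose 6 library columns hold a signal, counts per gene divided by a size factor per library, per the file headers and values. The build mm10 and the tools DESeq2, HTSeq, SAMtools, HISAT, HISAT2 and TopHat2 are listed without versions or roles, per the submitters' processing notes. The deposited log2 fold changes, p-values, adjusted p-values and test score (a Wald statistic) are the authors' own. Every value was a whole multiple of its column's smallest value (100% within 0.01 read), so reads were recovered. 1 read was worth 0.542 to 2.04 normalized counts in cKO and 0.506 to 1.06 in WT.

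Normalized values were tested with limma 3.58.1 (R 4.3.3, mean-variance trend) on log2(value + 1), for genes with a mean of at least 1, with genotype alone in the model. As the values are normalized and not raw counts, a count test was not the main test; edgeR 4.0.16 and DESeq2 1.42.0 on recovered reads were alternatives and called 0 genes, and 15 higher and 4 lower genes, in that order. Fold changes on this scale understate those of low genes. Tests were tried on simulated counts first. The 8 genes and all lists were chosen with earlier results of these data known. Up to 4 genes per related list were named by smallest unadjusted p, with the 3 genes most like Fas among those with a mean of at least 100. Some genes that this rule names are not reported here. Of 62 listed genes 6 were not tested here: 1 had a mean under 1 and 5 had no row. Coordinates and exon lengths come from GENCODE M21 (GRCm38, the assembly mm10 names).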

Additional observations from a re-analysis of the deposited data

How the results depend on the processing

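The 8 genes and the 56 related genes gave 0 calls under all 17 alternatives, while over all genes DESeq2 called 15 higher and 4 lower, the replicate block 1 higher, and the term for replicate 1 called 2 higher and 1 lower. At an unadjusted p under 0.05, all genes gave 192 to 721 higher and 151 to 664 lower calls over the alternatives, and the 56 related genes 0 to 5 and 0 to 3. Of the 8 genes, 1 (Casp9) passed an unadjusted p of 0.05 as lower without cKO replicate 1. With single libraries left out, the log2 fold change ranged from -0.15 to 0.057 for Fas, -0.16 to 0.38 for Fadd, -0.17 to -0.04 for Casp8, -0.31 to 0.015 for Cflar, -0.54 to -0.06 for Casp9, -0.20 to -0.002 for Apaf1, -0.42 to -0.08 for Xiap and 0.07 to 0.33 for Birc3. Thus Fas turned positive without cKO replicate 2, Cflar without cKO replicate 3, and Fadd negative without cKO replicate 1 or WT replicate 3. Birc5 ranged from -0.58 to 0.026 and turned positive without cKO replicate 2 or WT replicate 1 (0.011). The ratios ranged from -0.077 to 0.27 (Casp8 to Cflar), -0.46 to 0.16 (Casp9 to Xiap), 0.05 to 0.47 (Apaf1 to Casp9) and -0.41 to 0.14 (Fas to Fadd), and in replicates 2 and 3 alone Casp8 to Cflar was -0.039. The cause of these turns was not tested. No scaling, pseudocount or filter alternative turned the sign of any of the 8 genes. The shift of the median of all genes stayed between -0.08 and 0.02. Mlkl, Tnfrsf1a and Tnfrsf10b gave no value with a mean of at least 10.

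The replicate numbers did not pair the libraries by the rule used: deviations from the group means correlated at 0.49, 0.05 and 0.20 for numbers 1, 2 and 3. With the replicate block the adjusted p of Casp9 was 0.593 by limma, and it changed no call among the 8. Counted by each gene's lowest library, Fadd and Casp9 had the fewest reads of the 8, at 43 and 78.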
